A study of Mus musculus with 12 samples.

Results

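The samples described here are the 4 unstimulated libraries, of 12 samples in the series, of mouse natural killer (NK) cells whose RNA was sequenced before any receptor was engaged. They were taken by name, as the columns of the deposited log2 CPM table whose names end in unstim, and no measured value entered the choice. All 4 came from mice of the strain B6.129S4-Ifngtm3.1Lky/J with the genotype mut/mut, in which Ifng, the interferon gamma gene, is altered to report its activity through a yellow fluorescent protein (YFP). The labels mark every sample of the series, stimulated or not, as HD IL-15, an abbreviation they do not spell out, and the series title calls the cells IL-15 primed. No unprimed cells and no mice with an unaltered Ifng allele were compared here, so the levels below describe primed reporter cells only. The other 8 samples were stimulated through the receptor NK1.1 for 6 h and were not used. The libraries are called f2, m2, m3 and m4 after their labels, and by the sex-linked genes below f2 is female and the others are male. The labels do not say whether the libraries came from separate mice. The SD over them (n = 4 throughout) may thus be in part technical, and it includes any difference between the sexes.

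NK cells are innate lymphocytes that kill infected or transformed cells and secrete cytokines. Killing runs through cytotoxic granules, in which perforin opens the target membrane and granzymes, a family of serine proteases, enter and start cell death. The decision to release granules is set by activating receptors, which signal through adaptor proteins with immunoreceptor tyrosine-based activation motifs (ITAMs), and by inhibitory receptors that bind MHC class I molecules. IL-15 acts through the IL-2 receptor beta chain and the common gamma chain, the kinases JAK1 and JAK3 and the transcription factor STAT5, and is known to support NK cell survival, growth, division and granule loading.

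Levels are given in TPM (transcripts relative to a fixed total): the reads of a gene were divided by the length of its annotated exons and scaled so that the protein-coding genes of each library sum to 1000000, which allows genes to be compared with each other. Ranks run from 1 for the highest mean TPM over the 4 libraries to 21894, the number of protein-coding genes with a length. Of these, 9470 (43.3%) reached 1 TPM in all 4 libraries and 4765 (21.8%) reached 10 TPM in all 4, the level used below to count the members of a gene list. The median over all protein-coding genes was 0.408 TPM, 11991 of the 21894 averaged below 1 TPM, and 4665 genes had no read in any library. Library totals were 32439105 to 39836749 reads, and the floor of 3 reads corresponded to 0.0753 to 0.0925 CPM (reads of a gene relative to the library total), a limit that covers counting error only.

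Library m4 stood apart from the other 3. The correlation of log2(TPM + 1) across 5211 protein-coding genes with a mean of at least 10 TPM, which are not independent replicates, was 0.992 to 0.995 among f2, m2 and m3 and 0.976 to 0.982 between m4 and the others. Annotated rRNA took 11.96 to 15.2% of reads and features annotated as miRNA 5.95 to 7.88%, both highest in m4, while the share of reads on protein-coding genes (73.7 to 78.3%) and the library total were lowest there. Reads assigned to Lars2, the gene of the mitochondrial leucyl-tRNA synthetase, were 9.65 to 12.4% of all reads. Like those of annotated rRNA, they were lowest in m2 and highest in m4, but f2 and m3 came in opposite order. Annotated rRNA took 14.9% of reads in f2 and 12.9% in m3, and Lars2 9.73% in f2 and 10.04% in m3. Whether they come from the Lars2 message was not tested, so its level is uncertain. Among sex-linked genes, Xist had 10.4 TPM in f2 and at most 0.0186 in the other libraries, while Eif2s3y had 0.0662 TPM in f2 and 17.4 to 25.4 in m2, m3 and m4, and Ddx3y, Kdm5d and Uty were likewise highest outside f2. The letters in the sample names thus matched the sex-linked genes in all 4 libraries.

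The NK cell markers were present at high level in all 4 libraries. All 10 exceeded 10 TPM in every library, and their lowest member was Tbx21 with 46.2 ± 6.94 TPM. Among markers of other cells, those of B cells (Ms4a1, Pax5), macrophages (Csf1r, Adgre1), neutrophils (S100a8, S100a9, Cxcr2) and red cells or platelets (Hbb-bs, Gp9) averaged at most 0.145 TPM, and Pax5, S100a9 and Cxcr2 had no read. Other members of these lists were higher, and not all of them are named here. Cd79a, a B cell receptor chain, averaged 1.54 TPM, with 19 to 29 reads in every library. Elane, neutrophil elastase, averaged 1.12 TPM, with 3.88 TPM in m2 and 0 in f2 and m4, Ly6g 0.588 and Pf4, a platelet chemokine, 0.512 TPM. Means below 1 TPM were found for 7 of 10 B cell markers and 9 of 12 monocyte and macrophage markers. The same held for 9 of 10 neutrophil markers and all 10 red cell and platelet markers. It also held for 11991 of all 21894 protein-coding genes, so the counts by themselves say little about which cells were absent. The summed level per library was 0.475 to 6.09 TPM for the 10 neutrophil markers, 0.186 to 1.698 TPM for the 10 red cell and platelet markers, and 24.02 to 31.4 TPM for the 12 monocyte and macrophage markers, most of it Ly6c2 (23.5 ± 4.22 TPM).

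Among the 12 markers of other innate lymphoid cells, Il23r, Il1rl1 and Il17rb averaged at most 0.0966 TPM. Cxcr6 (90.5 ± 14.6 TPM), Tmem176b (33.7 ± 8.03 TPM), Gata3 (33.3 ± 2.38 TPM) and Tmem176a (17.2 ± 2.39 TPM), which NK cells can also express, were at 10 TPM or more in all libraries. Kit averaged 11.3 ± 3.62 TPM, from 9.34 in f2 to 16.8 in m4, and Cd200r1 5.37 ± 1.94 TPM. The summed level of the 12 was 172 to 224 TPM. Of the 11 dendritic cell markers, Flt3, Clec9a, Siglech and Ccr9 averaged at most 0.0603 TPM, and H2-Ab1 (121 ± 9.53 TPM), Bst2 (89.9 ± 9.98 TPM) and Cd74 (22.4 ± 10.7 TPM) made up most of the summed level of 206 to 265 TPM. H2-Ab1 and Cd74 belong to MHC class II presentation, and Cd74 was lowest in f2 (12.1 TPM) and highest in m4 (37.2 TPM).

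T cell markers divided. Of 12, 6 were at 10 TPM or more in all 4 libraries and the other 6 were below 1 TPM on average, as were 11991 of all 21894 protein-coding genes. The T cell receptor constant segments Trbc1 (1494 ± 72.4 TPM), Trbc2 (776 ± 94.5 TPM) and Trac (27.4 ± 2.99 TPM), the CD3 chains Cd3g (51.2 ± 25.5 TPM) and Cd3d (34.01 ± 11.7 TPM) and the costimulatory receptor gene Cd28 (40.8 ± 3.56 TPM) formed the first group. Cd3e, the CD3 chain that a surface T cell receptor requires, had 0.427 in f2, 0.66 in m2, 0.565 in m3 and 0.109 in m4 TPM, and Cd4, Cd8a and Cd5 averaged at most 0.0666 TPM. Cd3g was highest in m4, at 87.7 TPM against 32.1 to 49.95 in the other 3 libraries, and Cd3d followed the same order of extremes with 51.4 against 26.5 to 29.8 TPM. In bulk RNA, few cells with a high level and many cells with a low level cannot be told apart. Ighm, the constant segment of IgM, had 275 ± 49.8 TPM and made up most of the summed level of the 10 B cell markers, 239 to 354 TPM. The constant segments of antigen receptors share sequence with each other (for Trbc1, 35.1% of its 75-base stretches recur in other genes), so their levels are uncertain.

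Cytoskeletal, cytotoxic and translation genes were among the highest of the profile. The 20 highest protein-coding genes held the cytoskeletal genes Actb (41178 ± 3239 TPM, rank 1) and Tmsb4x (18234 ± 809.6 TPM), Lars2 (32621 ± 5153 TPM), 4 granule genes (Gzma, Gzmb, Gzmc and Nkg7), Lgals1, which encodes the lectin galectin-1, the glycolytic gene Aldoa, B2m, the invariant chain of MHC class I, the ubiquitin gene Ubb, and the translation genes Rplp0, Rpl32, Rpl36, Rps3a1, Eef1a1, Rplp1 and Rpl13. Gm2000, also among the 20, is a predicted gene near-identical to a ribosomal protein gene, and its 7286 ± 1329 TPM could belong to that gene. The place of Lars2 among the 20 is uncertain too, since the origin of its reads was not tested. The 100 highest genes carried 48.9 to 50.95% of the protein-coding expression of a library, and 95 to 107 genes carried 50%.

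Granzymes and perforin together made up 5.72 ± 0.534% of protein-coding expression from 11 genes. In TPM, Gzma (granzyme A, chr13:113093825-113100981 on GRCm38), a tryptase-like protease, had 32013 in f2, 30637 in m2, 27181 in m3 and 28133 in m4. Gzmb (granzyme B, chr14:56258838-56262260), which cleaves caspases and their substrates, had 16310.1 in f2, 14506 in m2, 15502 in m3 and 12868 in m4. Prf1 (perforin, chr10:61297833-61304680) had 4031 in f2, 3727 in m2, 3486 in m3 and 2368 in m4. Gzma thus exceeded Gzmb in all 4 libraries, by a ratio of 2.004 ± 0.191, and Gzmb exceeded Prf1 by 4.45 ± 0.693, while perforin was lowest in m4.

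Gzmc, one of a set of rodent granzymes, ranked 11 among all protein-coding genes. Its TPM values were 10892 in f2, 6737 in m2, 7694 in m3 and 8247 in m4, so its highest library was f2, and the ranges of Gzmc (6737 to 10892) and Gzmb (12868 to 16310.1) did not overlap. Gzmd had 621 ± 215 and Gzme 437 ± 162 TPM, with 308 and 200.3 TPM in m4, below the other 3 libraries (648 to 775 and 467 to 551 TPM). Gzmg (28.3 ± 7.29 TPM) and Gzmk (21.4 ± 5.27 TPM) were far lower, and the 3 lowest were Gzmf (9.93 ± 2.08 TPM), Gzmm (4.401 ± 0.633 TPM) and Gzmn (2.99 ± 1.198 TPM). Of the 11 genes, 8 reached 10 TPM in all 4 libraries (72.7%), against 21.8% of all protein-coding genes.

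Gzmb to Gzmg, with Gzmn, lie side by side on chromosome 14 on the minus strand, in a cluster that also holds the mast cell protease genes (chr14:55941451-55944675 for Cma1 at one end and chr14:56258838-56262260 for Gzmb at the other, GRCm38). Levels along this stretch did not follow position. Gzmb and Gzmc, the last pair, had 14796 and 8392 TPM, their neighbours Gzmf and Gzmn had 9.93 and 2.99, and Gzmd and Gzme, beyond these, had 621 and 437 TPM. Further along, the mast cell protease genes Cma2, Mcpt1, Mcpt9, Mcpt2 and Mcpt4 averaged at most 0.22 TPM and Ctsg, cathepsin G, 0.986 ± 0.438 TPM. Mcpt8, a basophil protease gene that sits next to Ctsg, had 90.8 in f2, 72.8 in m2, 65.6 in m3 and 37.01 in m4 TPM, and Cma1 had 33.9 in f2, 43.9 in m2, 31.98 in m3 and 17.1 in m4 TPM, both lowest in m4. Beside Mcpt8, the other defining mast cell and basophil markers were low: Cpa3 had 4.54 ± 0.812 TPM, Fcer1a, Ms4a2, Mcpt4, Tpsb2 and Gata2 averaged at most 0.305 TPM, and Prss34 was at 0 in f2 and m4, 3.502 TPM in m3 and 23.9 TPM in m2. The summed level of the 8 markers was 42.7 to 102 TPM, and its part in the Mcpt8 level was not tested.

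**Figure D1:**
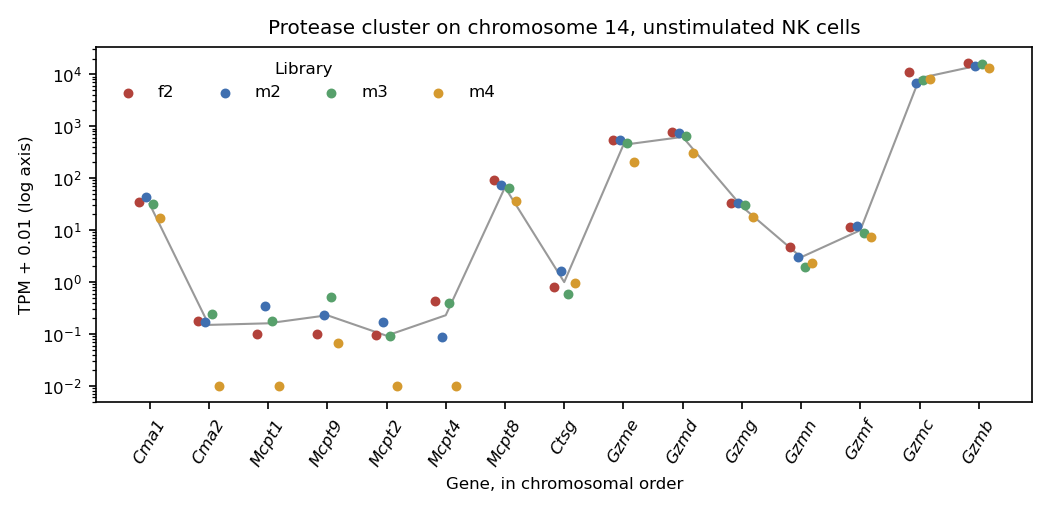
Level of each gene of the protease cluster on chromosome 14 in the order in which the genes lie, from Cma1 to Gzmb. Points are the 4 libraries on a log axis of TPM + 0.01, lines join the means, and Gzmb and Gzmc sit at 6737 TPM or more beside Gzmf and Gzmn at no more than 12.005 TPM.

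The sequences just before the starts of Gzmc to Gzmg are shown because the 5 genes differ much in level. Their sequences there are closer to each other than to that of Gzmb, and the part of sequence in the level differences was not tested. Each line holds the 120 bases before the RefSeq start of the gene on GRCm38.p6, read 5′ to 3′ on the minus strand, and capitals mark the longest stretch that all 5 share, 20 bases.
Gzmc: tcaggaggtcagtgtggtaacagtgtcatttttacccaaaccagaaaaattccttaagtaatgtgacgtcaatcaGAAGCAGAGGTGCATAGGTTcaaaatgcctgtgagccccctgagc
Gzmd: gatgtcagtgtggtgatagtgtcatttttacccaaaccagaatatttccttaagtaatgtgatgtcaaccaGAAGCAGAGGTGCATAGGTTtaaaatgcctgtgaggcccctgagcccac
Gzme: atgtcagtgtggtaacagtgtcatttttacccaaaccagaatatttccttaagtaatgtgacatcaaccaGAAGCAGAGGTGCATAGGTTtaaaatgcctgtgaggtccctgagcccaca
Gzmf: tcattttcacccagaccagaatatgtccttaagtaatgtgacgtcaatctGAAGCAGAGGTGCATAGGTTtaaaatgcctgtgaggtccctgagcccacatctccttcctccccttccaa
Gzmg: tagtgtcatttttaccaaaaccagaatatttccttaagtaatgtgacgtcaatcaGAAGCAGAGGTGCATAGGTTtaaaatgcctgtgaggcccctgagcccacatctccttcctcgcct
These lie at chr14:56234658-56234777, chr14:56132594-56132713, chr14:56120626-56120745, chr14:56211408-56211527 and chr14:56159580-56159699. Over the 250 bases before the start, identity in a global alignment was 71.5% for Gzmc with Gzmf, whose annotated starts are offset, 81.3% for Gzmc with Gzmd and 94.8% for Gzmd with Gzme, against 47.3% to 52.4% for any of the 5 with Gzmb. The cyclic AMP response element TGACGTCA, searched on both strands, was in the 250 bases of Gzmc, Gzmf and Gzmg and not in those of Gzmd, Gzme and Gzmb, and 508 of 32851 promoters of that length (1.55%) held it. The AP-1 motif TGANTCA, which does not overlap with it, was in the Gzmb promoter and in none of the other 5, and 6.75% of promoters held it. Among the 3 genes with TGACGTCA the mean level was 8392 TPM for Gzmc, 28.3 for Gzmg and 9.93 for Gzmf, and the within-library ratio of Gzmc to Gzmf was 872 ± 229.

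The machinery that stores and releases granules was expressed throughout. Of its 20 genes, 18 were at 10 TPM or more in all 4 libraries, with a median of 68.2 TPM. Nkg7, a granule membrane protein needed for efficient degranulation, had 9502 ± 908 TPM (rank 7), and next came Serpinb6b, a protease inhibitor, with 1282 ± 76.9, Ctsw, cathepsin W, with 1270.1 ± 130.4, Ctsd, cathepsin D, with 1165 ± 86.9 and Srgn, the proteoglycan core that packs granzymes, with 967 ± 61.7 TPM. The inhibitor gene Serpinb9b was one of the 10 genes with the widest spread, with 139 in f2, 88.8 in m2, 72.6 in m3 and 34.5 in m4 TPM. The lowest members were Lyst (3.302 ± 0.665 TPM), a lysosomal trafficking regulator, and Adgrg1 (1.61 ± 0.475 TPM). The level of Ctsd is uncertain, since 34.4% of its exon bases overlap another gene and 35.8% of its stretches recur in other genes.

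Chemokine messages were abundant and most cytokine messages were not. Among 19 secreted factors, 10 reached 10 TPM in all 4 libraries and 7 averaged below 1 TPM. In TPM, Ccl5, a chemokine that NK and memory T cells store as message, had 4077 in f2, 4335 in m2, 3411 in m3 and 8380.2 in m4, and Ccl4, which attracts other leukocytes, had 2158 in f2, 1793 in m2, 1765 in m3 and 2693 in m4. Both were highest in m4, and Ccl5 exceeded Ccl4 in all 4 libraries by a ratio of 2.34 ± 0.569. Spp1, osteopontin, had 3452 in f2, 3535 in m2, 3139 in m3 and 1928 in m4 TPM and was lowest in m4. Ccl3 had 355 in f2, 309 in m2, 316 in m3 and 401 in m4 TPM and Xcl1, the chemokine for XCR1-bearing dendritic cells, 302 in f2, 243 in m2, 293 in m3 and 469 in m4 TPM, and their order changed between libraries, with Ccl3 higher in 3 of 4.

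Ifng (chr10:118441046-118445892 on GRCm38) was transcribed at a low level, rank 5085 of 21894. Its TPM values were 10.9 in f2, 9.66 in m2, 9.63 in m3 and 11.7 in m4, with no library far from the rest, and Ccl3 exceeded it by a within-library ratio of 32.9 ± 0.973. The allele is modified in these mice and 25.9% of the exon bases of Ifng overlap another annotated gene, so its TPM covers only reads assigned to the mouse exons. Il2, rarely associated with NK cells, had 11.1 in f2, 21.3 in m2, 13.8 in m3 and 17.3 in m4 TPM. At the bottom of the list, Il22 had no read, Il10 averaged 0.0378 TPM and Areg 0.0533 TPM, and Csf2, encoding GM-CSF, had 0 in f2, 0 in m2, 0.641 in m3 and 0.417 in m4 TPM, which is 3 and 6 reads in m4 and m3.

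Of the 6 death ligands, 2 were at 10 TPM or more in all libraries. Ltb, lymphotoxin beta, had 165 in f2, 170.2 in m2, 154 in m3 and 290.1 in m4 TPM and was highest in m4, and Fasl, which triggers the death receptor Fas, had 184 in f2, 182 in m2, 164 in m3 and 140.2 in m4 TPM. The other 4 were low, with Tnf at 6.71 ± 1.21, Tnfsf10 (TRAIL) at 4.198 ± 1.28, Tnfsf14 at 3.799 ± 0.908 and Lta at 3.64 ± 0.968 TPM.

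**Figure D2:**
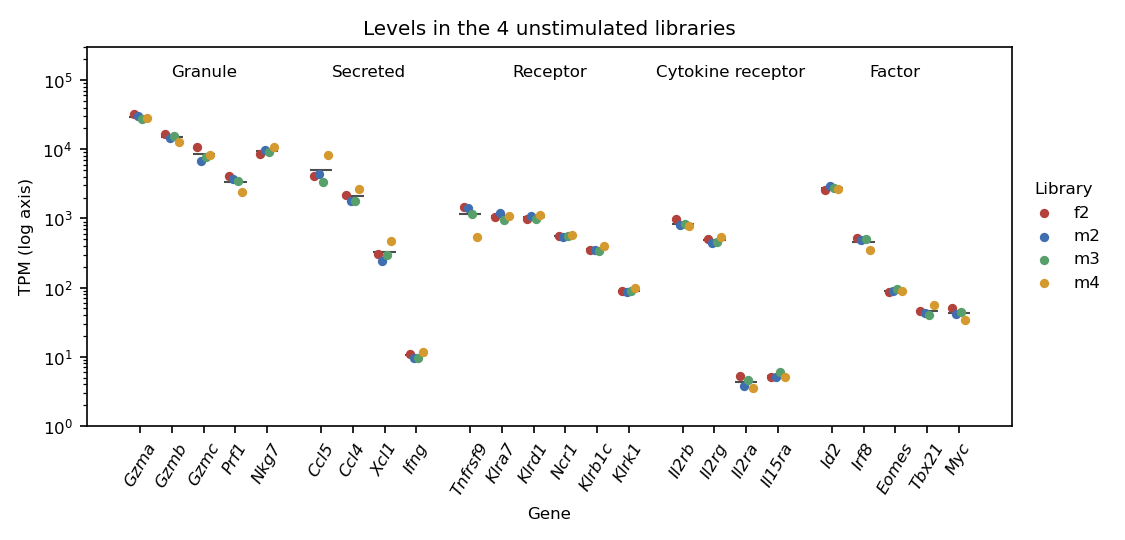
TPM of 24 named genes in each of the 4 unstimulated libraries, on a log axis, grouped by role. Points are libraries and horizontal bars are means; granule genes lie above 1000 TPM, while Ifng, Il2ra and Il15ra lie near or below 10 TPM.

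The activating receptors were led by a costimulatory receptor with a wide spread. Tnfrsf9, which encodes 4-1BB, had 1478 in f2, 1406 in m2, 1141 in m3 and 543 in m4 TPM, so that m4 was lowest and outside the range of the other 3. Klra4 (Ly49D) had 816 ± 104, Cd48, a ligand and receptor of the SLAM family, 587 ± 27.98, Ncr1 (NKp46), which marks NK cells, 553 ± 16.3, and Klra8 (Ly49H), which binds a viral ligand, 389 ± 41.7 TPM. In TPM, Ncr1 had 558 in f2, 533 in m2, 549.8 in m3 and 571 in m4 and Klrb1c, which encodes NK1.1, 353 in f2, 351 in m2, 334 in m3 and 399 in m4. Both were steady, and Ncr1 was above Klrb1c in all 4 libraries by a ratio of 1.54 ± 0.0915 per length, an order that turns when reads are not divided by length. Klrk1 (NKG2D) had 90.3 ± 5.37 TPM, and Klrb1c exceeded it by 3.98 ± 0.137 within libraries. Of the 20 listed, 15 were at 10 TPM or more in all 4 libraries, and the lowest were Klrc2 (8.87 ± 1.57 TPM), Tnfrsf4 (0.937 ± 0.426 TPM) and Slamf6 (0.408 ± 0.132 TPM). Klra9 (Ly49I), which was listed here, is an inhibitory receptor by its known function, and its level was 226 ± 20.2 TPM.

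Inhibitory receptors were led by a Ly49 gene and by CD94. Klra7 (Ly49G) had 1052 in f2, 1206 in m2, 962 in m3 and 1076 in m4 TPM and Klrd1, the CD94 chain shared by the NKG2 receptors, 978 in f2, 1069.6 in m2, 974 in m3 and 1130.1 in m4 TPM, and their ranges overlapped. Tigit, a receptor for nectin-like ligands, had 404 ± 62.9, Klra5 (Ly49E) 231 ± 22.96 and Klre1 226 ± 9.12 TPM. Klrc1, which encodes NKG2A, the inhibitory partner of CD94, had 91.2 ± 7.13 TPM, so that Klrd1 exceeded it by 11.4 ± 0.97, and 26.7% of the stretches of Klrc1 recur in other genes. Among the Ly49 genes, the inhibitory Klra7 exceeded the activating Klra4 in all 4 libraries by 1.32 ± 0.0945. In this list 15 of 24 genes were at 10 TPM or more in all libraries and 5 averaged below 1 TPM, among them Pilra (0.5 TPM), Siglecg (0.0298 TPM) and Pdcd1 (0.252 ± 0.175 TPM), which encodes PD-1.

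The signalling adaptors were among the highest genes of the cells. Fcer1g, the ITAM-bearing FcR gamma chain, had 4678 in f2, 5372 in m2, 4928 in m3 and 5034 in m4 TPM and Tyrobp, which encodes the ITAM adaptor DAP12, 4269.8 in f2, 5102 in m2, 4602 in m3 and 5700.4 in m4 TPM. The order of the pair changed between libraries, with Fcer1g higher in 3 of 4. Hcst, which encodes DAP10, the adaptor of NKG2D, had 598 ± 120.1 TPM, and Tyrobp exceeded it by 8.34 ± 0.827. The kinases followed, with Lck, a Src-family kinase, at 545 ± 61.3 TPM and Zap70, which binds phosphorylated ITAMs, at 243 in f2, 199 in m2, 193 in m3 and 139 in m4 TPM. Syk, the relative of Zap70, had 10.3 ± 1.69 TPM, and the ratio of Zap70 to Syk was 10.9 to 27.02 over the libraries. Cd247, the CD3 zeta chain, had 58.95 ± 3.43 TPM, a level that is uncertain because 60.3% of its exon bases overlap another gene. In the list 16 of 22 genes were at 10 TPM or more in all libraries, and the lowest were Vav2 (0.836 TPM), Plcg1 (0.196 TPM) and Btk (0.0905 TPM).

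The receptor through which IL-15 signals was expressed with uneven chains. In TPM, Il2rb, the beta chain, had 972 in f2, 814 in m2, 821 in m3 and 763 in m4. Il2rg, the common gamma chain, had 499.7 in f2, 437 in m2, 448 in m3 and 530.3 in m4, with 41.1% of its stretches shared with other genes. The high-affinity alpha chains were much lower, with Il2ra at 5.34 in f2, 3.82 in m2, 4.67 in m3 and 3.58 in m4 and Il15ra at 5.12 in f2, 5.14 in m2, 5.98 in m3 and 5.13 in m4 TPM. Within libraries Il2rb exceeded Il2rg by 1.77 ± 0.225, Il2ra by 196 ± 19.8 and Il15ra by 159 ± 22.5. Downstream, Jak1 had 153 ± 11.7 and Jak3 43.6 ± 7.45 TPM, Stat5b had 14.5 ± 2.62 and Stat5a 4.501 ± 0.625 TPM, and Cish, a feedback inhibitor that STAT5 induces, had 24.1 ± 3.26 TPM.

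Other cytokine receptors were lower, except one chain of the interferon gamma receptor. Ifngr1 had 725 in f2, 665 in m2, 584 in m3 and 286 in m4 TPM, lowest in m4, whereas Ifngr2, the second chain of that receptor, had 0, 3, 3 and 0 reads in f2, m2, m3 and m4, none above the floor of 3 reads. In the annotation used here for lengths, no exon base of Ifngr2 overlaps another gene. Whether reads of Ifngr2 were left out when genes were counted was not tested. Il12rb1 (45.9 ± 5.36 TPM) and Il12rb2 (23.2 ± 4.16 TPM), the IL-12 receptor, and Il18r1 (20.7 ± 1.11 TPM) and Il18rap (30.2 ± 5.84 TPM), the IL-18 receptor, were within a few-fold of each other. The level of Il12rb2 is uncertain, since 40.0% of its exon bases overlap another gene. Of 33 genes of this list, 23 were at 10 TPM or more in all libraries, and Ifngr2 and Il7r (1.13 ± 0.684 TPM) were lowest.

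Among 24 adhesion and migration genes, 14 were at 10 TPM or more in all libraries. The highest were Itgb2, the common beta chain of leukocyte integrins, with 191 ± 22.7, S1pr4 with 149.6 ± 12.96, Itgb7 with 140.1 ± 20.5, Itgb1 with 127 ± 11.3 and the chemokine receptor gene Ccr2 with 109 ± 4.62 TPM. The maturation markers were unequal: Cd27, high on immature NK cells, had 72.9 in f2, 80.4 in m2, 70.5 in m3 and 80.3 in m4 TPM, while Itgam (CD11b), gained with maturation, had 4.71 ± 0.935 TPM. The Itgam level cannot be set beside others, since 68.7% of its exon bases overlap another annotated gene. The lowest were Cxcr4 (1.47 ± 0.532 TPM), S1pr1 (0.513 ± 0.117 TPM), the receptor that guides exit from lymphoid tissue, and Cx3cr1 (0.272 ± 0.2 TPM). Cxcr6 had 112 in f2, 83.7 in m2, 83.1 in m3 and 82.7 in m4 TPM and Cxcr3 56.7 in f2, 51.9 in m2, 64.4 in m3 and 98.3 in m4 TPM, with Cxcr3 the higher only in m4.

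Most transcription factor messages were moderate, and 2 stood above the rest of the lineage list. Id2, the inhibitor of E proteins that NK cells require, had 2545 in f2, 2889 in m2, 2753 in m3 and 2683 in m4 TPM (rank 57). Irf8 had 517 in f2, 483 in m2, 504 in m3 and 349 in m4 TPM and was lowest in m4, Nfil3, needed early in the lineage, had 117 ± 14.97, Zbtb32 114 ± 40.4 and Bhlhe40 106 ± 5.65 TPM. The T-box factors that define NK cells were both moderate, with Eomes at 85.8 in f2, 90.3 in m2, 94.1 in m3 and 88.2 in m4 and Tbx21 (T-bet) at 46.2 in f2, 43.1 in m2, 39.7 in m3 and 55.8 in m4 TPM. Eomes exceeded Tbx21 in all 4 libraries, by a ratio of 1.98 ± 0.338. In the list 21 of 36 genes were at 10 TPM or more in all libraries (median 16.4 TPM), and the lowest were Zfp683 (0.608 TPM), Bcl11b (0.536 TPM), a T lineage factor, and Tox2 (0.00675 TPM).

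Transcription factors that act in receptor signalling, listed as activation-induced factors, were present before stimulation. Whether signals induce each of these messages was not examined here. Junb (209 ± 19.5 TPM) and Jund (158 ± 9.58 TPM), subunits of AP-1, Rela (97.97 ± 26.02 TPM), a subunit of NF-kappaB, Egr1 (80.7 ± 15.9 TPM) and Batf (75.6 ± 5.62 TPM) were highest, and 52.6% of the exon bases of Jund overlap another gene. Myc, which drives growth, had 50.1 in f2, 41.02 in m2, 44.6 in m3 and 34.4 in m4 TPM. Of 35 genes, 20 were at 10 TPM or more in all libraries with a list median of 17.4 TPM, and Batf3 (0.7 ± 0.296 TPM), Fosl1 (0.606 ± 0.415 TPM) and Fosb (0.326 ± 0.113 TPM) were lowest.

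**Figure D3:**
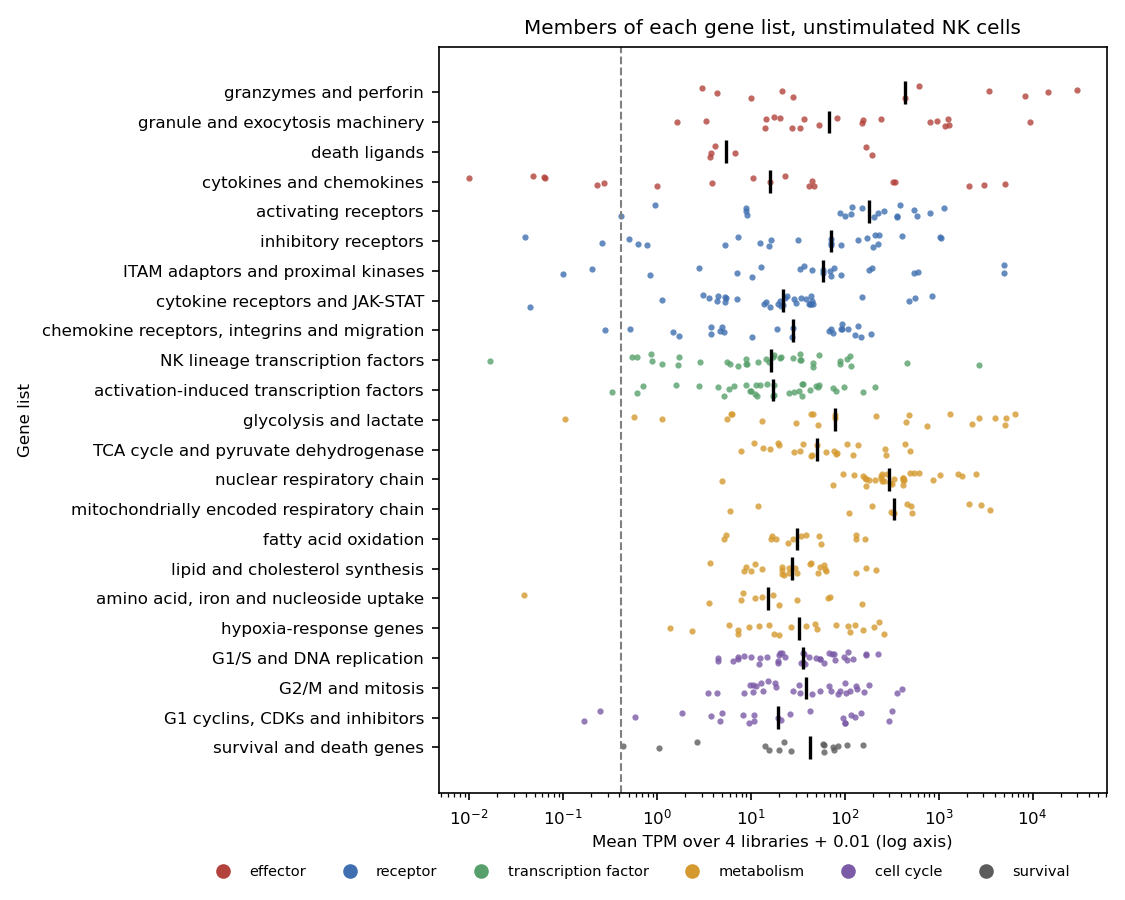
Mean TPM over the 4 unstimulated libraries of every member of 23 gene lists, on a log axis of TPM + 0.01, ordered by role. Each point is a gene, bars are list medians and the dashed line is the median of all protein-coding genes; granzymes and perforin and both respiratory chain lists have medians above 200 TPM.

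Glycolytic genes carried 2.96 ± 0.2% of protein-coding expression from 24 genes, the largest share of the 8 metabolic lists. The respiratory chain is split over 2 of these lists, nuclear (1.54 ± 0.0644%) and mitochondrially encoded (1.12 ± 0.228%), so this order depends on how the lists were drawn. Aldoa, aldolase A, had 6644 in f2, 6406 in m2, 6335 in m3 and 6960.1 in m4 TPM (rank 19), followed by Gapdh (5281 ± 376 TPM), Eno1 (5132 ± 451 TPM), Ldha (4019.7 ± 429 TPM), which turns pyruvate into lactate, and Pgk1 (2684 ± 166 TPM). Retained gene copies share sequence with several of these, so that 65.4% of the stretches of Eno1 and 67.5% of those of Pgk1 recur elsewhere. Pkm, pyruvate kinase, had 2692 in f2, 2470.3 in m2, 2536 in m3 and 1340.1 in m4 TPM and was lowest in m4. The isoenzymes were unequal, with Aldoa above Aldoc by 13.6 ± 1.39, Hk1 above Hk2 by 2.298 ± 0.435, and the lactate exporter Slc16a3 (216 ± 49.5 TPM) above Slc16a1 by 33.9 ± 5.01. The glucose transporter genes Slc2a1 (51.9 ± 6.96 TPM) and Slc2a3 (43.8 ± 2.88 TPM) changed order, with Slc2a1 higher in 3 of 4 libraries. Of the list 18 of 24 were at 10 TPM or more in all libraries, and the lowest were Pfkfb4 (1.13 ± 0.422 TPM), Ldhb (0.566 ± 0.282 TPM) and Eno2 (0.0954 ± 0.0726 TPM).

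The tricarboxylic acid cycle list had 20 of 23 genes at 10 TPM or more in all libraries and a median of 50.97 TPM. Mdh1 (493 ± 49.4 TPM) and Mdh2 (436 ± 31.4 TPM), the cytosolic and mitochondrial malate dehydrogenases, Idh3g (273 ± 17.2 TPM), Sdhb (268 ± 16.1 TPM) and Idh3b (139 ± 10.3 TPM) were highest. The nuclear genes of the respiratory chain were higher still, with 31 of 32 at 10 TPM or more in all libraries and a median of 295 TPM. Their highest were the cytochrome oxidase genes Cox6a1 (2524 ± 126 TPM), Cox8a (1779.7 ± 109 TPM), Cox4i1 (1619 ± 123 TPM) and Cox6b1 (1038 ± 85.5 TPM) and the complex I gene Ndufa2 (882 ± 91.7 TPM). The exception, Ndufs1 (4.88 ± 0.742 TPM), has an exon length of 8086 bases against 2661 in its longest transcript, which lowers its TPM.

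The mitochondrially encoded chain had 12 of 13 genes at 10 TPM or more in all libraries. The highest were mt-Co1 (2721 in f2, 3691 in m2, 4219 in m3 and 3507 in m4 TPM), mt-Cytb (2819 ± 739 TPM), mt-Nd1 (2087 ± 539 TPM), mt-Co3 (521 ± 98.7 TPM) and mt-Nd2 (504 ± 97.9 TPM). The list was lower in f2 and m4 than in m2 and m3: its median deviation from the gene means was -0.26 and -0.17 on the log2(TPM + 1) scale in f2 and m4, and 0.20 and 0.28 in m2 and m3. Nuclear copies of mitochondrial sequence share 99.5% of the stretches of mt-Co2, 99.9% of those of mt-Co3 and 61.5% of those of mt-Nd4, so the levels of these genes relative to mt-Cytb are uncertain.

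Lipid genes were moderate. For fatty acid oxidation 12 of 14 genes were at 10 TPM or more in all libraries, with a median of 31.2 TPM, led by Etfa (166 ± 10.05), Acadl (133 ± 19.1), Etfb (131 ± 30.4), Acads (55.9 ± 5.97) and Acadvl (53.6 ± 21.1 TPM). Exon bases overlap another gene at 58.2% for Etfb and 42.9% for Acadvl, so the levels of these 2 are uncertain. Cpt1a, which admits fatty acids to mitochondria, was the lowest, at 5.23 ± 0.761 TPM. For lipid and cholesterol synthesis 19 of 24 genes were at 10 TPM or more, with a median of 27.8 TPM, led by Mvd (216 ± 23.5), Scd2 (169 ± 17.4), Fdft1 (131 ± 9.87), Srebf2 (62.6 ± 1.98) and Mvk (62.1 ± 6.96 TPM).

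Nutrient uptake was led by the 2 subunits of the large neutral amino acid carrier and the glutamine carrier. Slc3a2 had 155 ± 23.995, Slc1a5 70.4 ± 10.9 and Slc7a5 66.4 ± 10.1 TPM, ahead of the nucleoside carrier Slc29a1 (31.4 ± 8.19) and Slc38a2 (19.98 ± 2.47 TPM), and the transferrin receptor gene Tfrc had 17.4 ± 1.499 TPM. Of 12 genes, 6 were at 10 TPM or more in all libraries. Among 22 hypoxia-response genes 16 were at that level, led by Bnip3l (263 ± 8.64) and Bnip3 (231 ± 38.1), mediators of mitophagy, Higd1a (205 ± 21.5), Selenbp1 (157 ± 8.38) and Ero1l (130.3 ± 28.5 TPM), and Hif1a itself had 15.5 ± 0.917 TPM.

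Genes of dividing cells were expressed before stimulation. Of 37 G1/S and replication genes 30 (81.1%) and of 30 G2/M and mitosis genes 23 (76.7%) were at 10 TPM or more in all 4 libraries, against 21.8% of all protein-coding genes, with medians of 35.9 and 38.95 TPM. Pcna, the replication clamp, had 239 in f2, 228 in m2, 244 in m3 and 201 in m4 TPM, followed by Rrm2 (168 ± 33.01), a ribonucleotide reductase subunit, Rfc4 (167 ± 9.47), Gins4 (122 ± 4.18) and Slbp (109 ± 10.4 TPM). Among mitotic genes, Ccnb2, cyclin B2, had 445 in f2, 379 in m2, 392 in m3 and 401 in m4 TPM, followed by Ube2c (363 ± 20.7), Cdc20 (183 ± 23.9), Plk1 (161 ± 57.5) and Birc5 (136 ± 4.202 TPM). Mki67, the proliferation marker, had 26.6 in f2, 29.4 in m2, 40.96 in m3 and 32.2 in m4 TPM, with f2 lowest and m3 highest, and the ranges of Ccnb2 and Mki67 did not overlap. Share of dividing cells and level per dividing cell cannot be told apart in these values.

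Regulators of G1 were mixed. Cdk4 had 323 ± 20.1 TPM and exceeded Cdk6 by 15.5 ± 2.42, and the cyclin genes Ccnd2 (129 ± 7.197 TPM) and Ccnd3 (100.4 ± 7.04 TPM) differed by a ratio of 1.29 ± 0.143, an order that turns when the longest transcript is taken as the length. Inhibitors and antiproliferative genes were also high, with Cdkn2d, an inhibitor of CDK4 and CDK6, at 293 ± 27.6, Btg2 at 149 ± 17.4 and Btg1 at 101 ± 9.93 TPM, while Cdkn2a (0.579 ± 0.481), Ccnd1 (0.24 ± 0.159) and Cdkn1c (0.158 ± 0.259 TPM) were lowest. Of 23 genes, 12 were at 10 TPM or more in all libraries. Among 16 survival and death genes 13 were, led by the death genes Bax (158 ± 12.8), Casp8 (107 ± 25.5) and Bad (85.5 ± 9.43), Mcl1, on which NK cells depend for survival (77.4 ± 9.71), and Bcl2a1d (74.2 ± 8.62 TPM), whose stretches recur in gene copies at 67.6%. Bcl2 had 59.7 ± 8.88 TPM, and Fas (2.66 ± 0.999), Bmf (1.05 ± 0.337) and Pmaip1 (0.431 ± 0.184 TPM) were lowest.

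Levels varied little between libraries for most genes. Over the 5211 protein-coding genes with a mean of at least 10 TPM, the median SD of log2(TPM + 1) was 0.14, and 173 genes (3.32%) had an SD of 0.5 or more, against 20 genes when m4 was left out. Among the 10 narrowest spreads were those of Spn, a sialylated surface protein (93.4 in f2, 93.3 in m2, 94.4 in m3 and 93.96 in m4 TPM), Arpc4, Sh3glb2, Slamf7, an activating SLAM receptor (209 in f2, 207 in m2, 205 in m3 and 208 in m4 TPM), Chpf, Commd7, Naca, Sharpin and Pdcd7, with SDs of 0.01 to 0.02. The widest was the Y-linked Eif2s3y (SD 2.22), near 0 in f2 as given above. The next were Asns, asparagine synthetase, with 78.3 in f2, 83.3 in m2, 86.97 in m3 and 21.4 in m4 TPM, Slc19a1, a folate carrier, Nup62, a nuclear pore protein, with 178 in f2, 159.8 in m2, 176 in m3 and 49.03 in m4 TPM, and Psat1, of serine synthesis, with 106 in f2, 95.8 in m2, 101 in m3 and 29.5 in m4 TPM. Serpinb9b, Nrros, Tbl3, Dolpp1 and Rpn1 completed the 10 widest, and in all of the 9 besides Eif2s3y the lowest library was m4.

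Library m4 accounted for most of the wide spread. It was the library farthest from the gene mean in 154 of the 173 genes, on the low side in 147. In m4, 371 of 5211 genes (7.12%) were 0.5 or more below the gene mean on the log2(TPM + 1) scale and 30 were as far above it, against 1 to 9 below in each of f2, m2 and m3. These genes were unevenly spread over transcript length: of 707 genes whose longest transcript is 2001 to 2500 bases, 117 (16.5%) were low in m4, and of 672 with 2501 to 3000 bases 91 (13.5%), against 7 of 605 (1.16%) with 1001 to 1500 bases and 3 of 165 (1.82%) above 7000 bases. All the libraries had RNA integrity numbers above 8 per the labels, and m4 had the most rRNA (15.2% of reads), the most miRNA-annotated reads (7.88%) and the fewest reads. The rRNA share of f2 was close to that of m4, at 14.9%, and f2 had 9 genes low by 0.5 or more. The part of rRNA, miRNA-annotated reads and read number in the m4 differences was not tested.

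**Figure D4:**
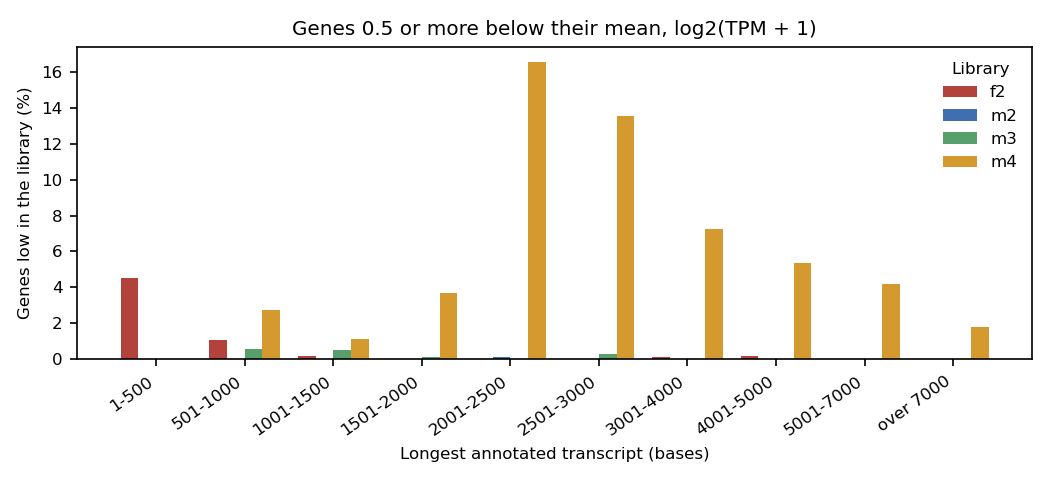
Percent of protein-coding genes (mean of at least 10 TPM) that were 0.5 or more below the gene mean on the log2(TPM + 1) scale in each unstimulated library, by length of the longest annotated transcript. Bars are the 4 libraries; m4 peaks at 16.5% for 2001 to 2500 bases.

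Gene lists went both ways in m4, with 13 of 23 below their gene means there and 10 above. Relative to the gene means, the median deviation in m4 was -0.41 for granzymes and perforin (log2 scale, 8 genes), -0.33 for nutrient uptake (8 genes), -0.20 for lipid synthesis (21 genes) and -0.19 for glycolysis (18 genes), beside -0.03 over all 5211 genes. Above their means in m4 were death ligands (0.19, 2 genes), cytokines and chemokines (0.16, 11 genes), G1 regulators (0.14, 14 genes), activation-induced factors (0.12, 24 genes), activating receptors (0.12, 15 genes), NK lineage factors (0.10, 21 genes), cytokine receptors (0.09, 23 genes), ITAM adaptors and kinases (0.06, 17 genes), hypoxia-response genes (0.06, 16 genes) and migration genes (0.06, 15 genes), of which only cytokines and chemokines stayed above when rRNA and all other features joined the denominator. That scaling moved the median of all 5211 genes in m4 to -0.24. In f2, the only female library by its sex-linked genes, granzymes and perforin lay 0.33 above and the nuclear respiratory chain -0.11 from their gene means. The marker list of T cells lay 0.09 above its gene means in m4 (6 genes), beside 0.08 for NK cell markers (10 genes). Dendritic cell markers lay 0.15 above (3 genes) and those of other innate lymphoid cells 0.25 above (5 genes). Summed T cell markers were highest in m4 at 2521 TPM, close to the 2504 TPM of m2 (2272 to 2521 TPM over the libraries). The summed markers of dendritic cells (206 to 265 TPM) and of monocytes and macrophages (24.02 to 31.4 TPM) were highest in m4 as well. Those of mast cells and basophils (42.7 to 102 TPM) were lowest there. The part of these markers in the m4 differences was not tested.

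**Figure D5:**
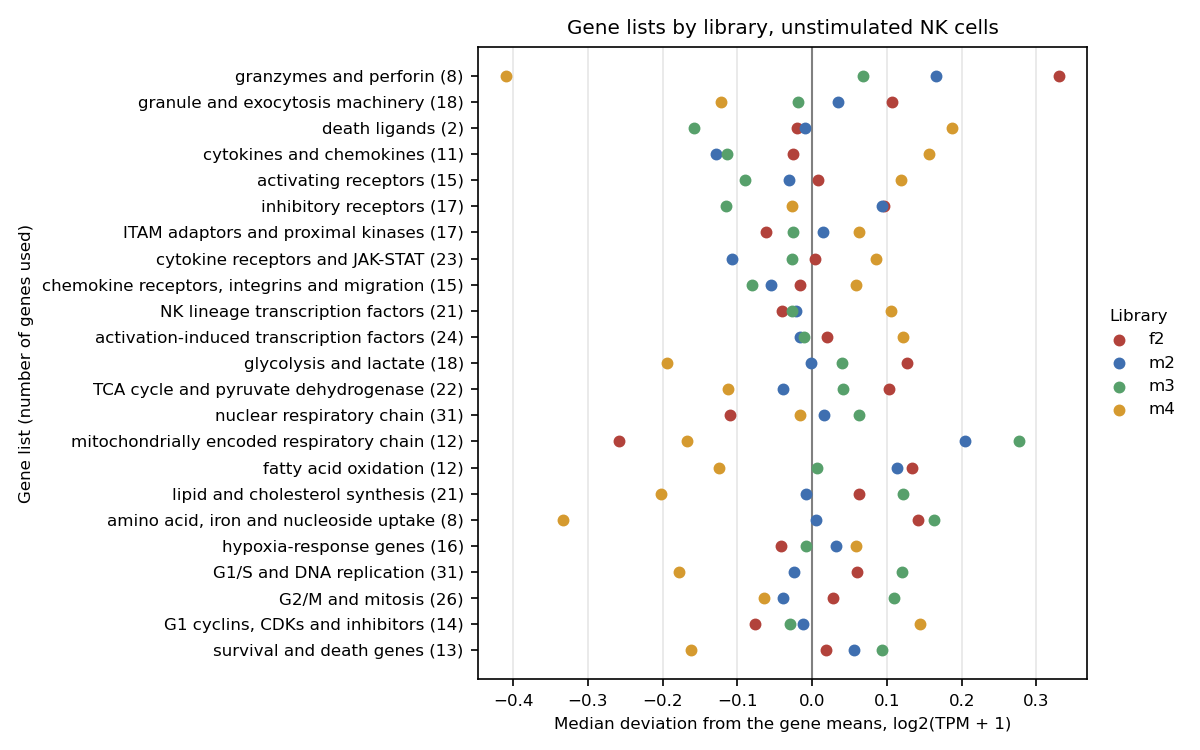
Median deviation of each gene list from the gene means in each unstimulated library, on the log2(TPM + 1) scale, over members with a mean of at least 10 TPM. Points are the 4 libraries and the vertical line marks 0; m4 lies at -0.41 for granzymes and perforin.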

How the data were processed

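RNA of 4 unstimulated NK cell samples was read from the table of moderated log2 CPM that the authors deposited. Per the labels' protocols, 10 ng of total RNA was amplified with the SMARTer Ultra Low kit and sequenced as paired ends. The submitters' processing notes name bcl2fastq, STAR 2.7.9a, Subread, featureCounts 2.0.3 and GRCm38, and how reads matching several genes were treated is not given in the sources used here. Of 55774 lines, 287 were repeats, which left 55487 features. CPM is linear in reads, so whole reads were recovered for 100% of values (tolerance 0.001 read), with library totals of 32439105 to 39836749. Reads were divided by the union exon length in GENCODE M21, which held 55227 of the features, and scaled to TPM over 21894 protein-coding genes. Spread is the SD of log2(TPM + 1) over genes with a mean of at least 10 TPM. Columns of values from no listed sample numbered 0. No groups were compared and no test was run. The recovery and the spread count were run on simulated data. These were made with the formula that the recovery inverts, so exact recovery there was built in.

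Exon overlap is the percent of exon bases under another annotated gene, and shared stretches are the percent of 75-base windows of the longest transcript found in other genes' transcripts. The 32 lists held 598 symbols, of which 597 matched by name and 1 by synonym. Promoters came from RefSeq (GRCm38.p6), and all 6 granzyme promoters looked up had an entry. The genes named are the 20 highest, the 5 highest and up to 3 lowest of each list, a panel of 20, the 10 widest and 10 narrowest spreads, and 5 sex-linked genes, apart from a few that are not reported here. Others, such as the genes of the protease cluster, Igkc, isoenzymes and receptor partners, were chosen after their values were seen. Members and lists were chosen with earlier results of these data known. Alternatives covered length, denominator, scaling, pseudocount, filters and leaving out each library, and 2 were chosen after seeing the data (Lars2 left out of the denominator, and genes with much exon overlap left out). Versions were Python 3.11.15, numpy 2.4.6, pandas 2.3.3, matplotlib 3.10.9 and Biopython 1.88.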

Additional observations from a re-analysis of the deposited data

Results flagged for a closer look

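A gap between the most extreme library and the next that took up more than the 95% limit of Dixon's ratio for 4 values was found for 25 of 271 values examined, among them gene levels, shares of reads and shares of expression. Chance gives about 1 such gap in 20 for values not chosen by their spread, and that rate does not apply to this count, because the values include genes picked for the widest or narrowest spread and sex-linked genes. Library m4 was the extreme one in 11, high in 6 and low in 5.

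In m4, Asns (21.4 TPM), Nup62 (49.0), Pkm (1340.1), Psat1 (29.5) and Slc29a1 (19.2 TPM) lay far below the other 3 libraries. Ltb (290.1), Cd3d (51.4), Il18r1 (22.4) and Cdkn1c (0.546 TPM) lay above them there, as did the share of reads on Lars2 (12.4%) and the share of expression in the 100 highest genes (51.0%). In f2, Cxcr6 (112 TPM), Idh3g (299), Itgb2 (225) and Xist (10.4 TPM) were high and Ndufa2 (745 TPM) was low.

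In m2, Prss34 (23.9), Elane (3.88), Fcer1a (1.22), Eno2 (0.203) and Sh3glb2 (24.6 TPM) were high and Naca (308 TPM) was low. In m3, Il15ra (5.98) and Birc5 (142 TPM) were high and Pmaip1 (0.156 TPM) was low. For Sh3glb2, Naca and Il15ra the other 3 libraries lay so close together that a small difference met the limit.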

How the results depend on the processing

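No paired analysis was possible because no groups were compared. The alternatives were set against 9470 genes detected, a 49.5% share in the 100 highest genes, 372 list members at 10 TPM or more, 22 of 23 list medians at 10 TPM or more, 20 highest genes, 173 genes with a wide spread and 10 of 23 lists lowest in m4. Dividing by the longest transcript gave a share of 51.2%, and CPM without length gave 46.4% and kept 11 of the 20 highest genes. Leaving Lars2 out of the denominator, chosen after seeing the data, gave 47.9%. Scaling over all features, rRNA included, left 225 members at 10 TPM and 11 list medians at that level, and put 21 lists lowest in m4, since it lowers every TPM and m4 most. Under it the m4 deviations turned for death ligands (-0.047), activating receptors (-0.11), NK lineage factors (-0.22), activation-induced factors (-0.33, and -0.070 with the longest transcript) and G1 regulators (-0.21), and the m2 deviation of cytokine receptors to 0.021. Wide-spread genes numbered 308 with a filter at 1 TPM and 362 with none, which count genes with few reads.

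The log2 ratio of Ncr1 to Klrb1c turned to -0.32 and that of Slc2a1 to Slc2a3 to -0.80 without length, that of Ccnd2 to Ccnd3 to -0.25 with the longest transcript, and that of Fcer1g to Tyrobp to -0.0066 without f2 and 0.10 without m4. Leaving out each library in turn gave 9519 to 9555 genes detected, shares of 49.0% to 49.7%, 373 to 382 members, 22 list medians each time, 20 of 20 highest genes, 20 (without m4) to 258 genes with a wide spread (without m3), and 10 to 12 lists lowest in m4. The other 72 of 82 values of these 7 results stayed within the replicate spread or 1.5 times the count. Reads limit genes near the floor of 3 reads, such as Ifngr2, Csf2 and Il22, whose levels were not detectable at this depth or rest on few reads.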

Other observations

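Outside the gene lists, several lymphocyte genes chosen after their values were seen had levels worth recording. Cd7, a surface receptor of T and NK cells, had 373 in f2, 403 in m2, 307 in m3 and 751 in m4 TPM and was highest in m4. The constant segment of the T cell receptor delta chain, Trdc, had 39.6 ± 1.55 TPM and that of one gamma chain, Trgc4, 22.2 ± 4.78 TPM, while Trgc1 had 7.21 ± 3.46 and Trgc2 0.562 ± 0.254 TPM. Igkc, the kappa light chain segment, had at most 4 reads in any library.

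The 2 chains of the ribophorin pair, Rpn1 and Rpn2, parts of the complex that adds sugar chains to proteins in the endoplasmic reticulum, both had a wide spread. Rpn1 had 115 in f2, 90.9 in m2, 80.2 in m3 and 33.8 in m4 TPM, and Rpn2 had 198 in f2, 174 in m2, 167 in m3 and 68.8 in m4 TPM. Both were lowest in m4, with SDs of log2(TPM + 1) of 0.76 for Rpn1 and 0.69 for Rpn2.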
